A study of Mus musculus with 9 samples.

Results

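Genes that carry, store and release iron, 9 of the 56748 genes in the count table, were followed through weight loss in epididymal adipose tissue of mice. They were taken by name and are transferrin (*Trf*), the transferrin receptor (*Tfrc*), the ferritin heavy and light chains (*Fth1*, *Ftl1*), ferroportin (*Slc40a1*), the divalent metal transporters *Slc11a1* and *Slc11a2*, heme oxygenase 1 (*Hmox1*) and ceruloplasmin (*Cp*). All 9 were expressed above the minimum used for testing, at least 0.5 CPM (counts scaled by the library total) in at least 1 library, as were 18510 genes in all. The samples came from male C57BL/6J mice that received a high-fat diet (HFD) for 8 weeks from 8 weeks of age. They were taken at the end of the HFD (Pre), or after 1 week (WL1) or 2 weeks (WL2) of standard diet (SD) following it, with 3 libraries per phase. All 3 phases thus shared the HFD, the strain and the sex, and the mice were 16, 17 and 18 weeks old by these figures, so that time on SD and age cannot be told apart. No library of lean mice or of mice kept on HFD was analysed here. The labels do not say whether the libraries of a phase came from separate mice, and p-values measure only the spread between these libraries.

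Iron circulates bound to transferrin, enters cells when transferrin binds its receptor and is taken up in endosomes, and crosses the endosomal membrane through divalent metal transporters. Iron that is not used is stored in ferritin, a shell of heavy chains, which oxidize iron, and light chains, which help to mineralize it. Macrophages that engulf dead cells break down heme with heme oxygenase, and ferroportin releases the iron with the help of ceruloplasmin, a copper enzyme that oxidizes it for loading onto transferrin. In adipose tissue, iron is needed for mitochondrial respiration in adipocytes, and resident macrophages are known to hold iron.

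Several of these transcripts carry iron-responsive elements, hairpins to which iron regulatory proteins bind when iron is scarce. Such binding to an element in the 5′ UTR blocks translation, and binding to elements in the 3′ UTR protects the transcript from decay, so that RNA levels alone say little about the amount of protein for the former class. The hairpins are shown because their place differs between the genes in which one was found. From the 3′ UTR, iron can set the RNA level through this system, and from the 5′ UTR it acts on translation. Each is given 5′ to 3′ on the sense strand, 30 bases of the GRCm38 genome, with the loop of 6 bases in capitals.
Fth1, 5′ UTR, 19:9982732-9982761, plus strand: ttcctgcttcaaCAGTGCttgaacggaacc
Ftl1, 5′ UTR, 7:45459778-45459807, minus strand: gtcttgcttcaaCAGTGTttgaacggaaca
Slc40a1, 5′ UTR, 1:45925464-45925493, minus strand: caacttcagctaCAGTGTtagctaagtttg
Tfrc, 3′ UTR, 16:32631219-32631248, plus strand: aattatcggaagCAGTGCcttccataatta
Tfrc, 3′ UTR, 16:32631598-32631627, plus strand: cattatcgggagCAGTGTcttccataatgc
Tfrc, 3′ UTR, 16:32631663-32631692, plus strand: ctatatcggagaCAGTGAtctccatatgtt
Tfrc, 3′ UTR, 16:32631710-32631739, plus strand: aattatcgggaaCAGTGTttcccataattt

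The search was for a C, 5 bases, the loop CAGTGN with a last base other than G, and 5 bases that pair with the earlier 5, with G to T pairs allowed. It was run on the sense strand of the annotated UTRs of 21877 protein-coding genes. The pattern was found in 4 of the 9 genes, in the 5′ UTR of *Fth1*, *Ftl1* and *Slc40a1* and in the 3′ UTR of *Tfrc*, where it occurred 4 times. Among all the genes searched, 123 (0.562%) held it, 23 in a 5′ UTR and 100 in a 3′ UTR. These letters were not found in the UTRs of *Trf*, *Slc11a1*, *Slc11a2*, *Hmox1* or *Cp*, and nothing about the binding proteins follows from that. Elements of another form, such as those with a mismatch in the stem, would have been missed, so these genes may still carry one.

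Per unit of transcript length, the ferritin chains and transferrin stood far above the other genes. In FPKM (fragments scaled by gene length and library size), the level over the 9 libraries was 652 to 1608 for *Ftl1*, 350 to 942 for *Trf* and 544 to 803 for *Fth1*. *Hmox1* reached 35.7 to 89.7, *Slc11a1* 12.7 to 67.5 and *Cp* 5.81 to 16.4 FPKM. The lowest were *Slc11a2* with 4.32 to 6.53, *Tfrc* with 2.42 to 6.09 and *Slc40a1* with 0.857 to 1.71 FPKM. In this order, the ranges of neighbours overlapped except those of *Fth1* and *Hmox1* and of *Tfrc* and *Slc40a1*. Even *Slc40a1*, the lowest, was counted with 178 to 344 reads per library, and the libraries held between 16434450 and 22729072 counted reads. The tests and the levels per library that follow use counts, scaled to CPM with TMM factors (trimmed mean of M-values).

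Of the 9 genes, 3 changed between phases. *Tfrc* was lower at WL1 and at WL2 than at Pre, *Slc11a1* was higher at WL1 than at Pre, and *Cp* was higher at WL2 than at Pre, in the quasi-likelihood test of edgeR, with p-values adjusted by Benjamini-Hochberg over the 18510 genes. The genes that passed numbered 2 of 9 at WL1 against Pre, where 7.29% of all genes passed, and 2 of 9 at WL2 against Pre, where 10.0% did. No gene of the 9 passed at WL2 against WL1, where 3.68% of all genes did, although 3 had an unadjusted p under 0.05 and DESeq2 called the same 3, *Slc11a1*, *Hmox1* and *Cp*. The median log2 fold change of the 9 genes was 0.44, 0.19 and -0.10 in the 3 comparisons, beside 0.02, 0.01 and -0.00 over all genes tested. The libraries of the phases did not overlap for 4, 5 and 2 of the 9 genes, beside 28.7%, 30.9% and 30.3% of all genes. The comparisons share libraries, so that their values are not independent.

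**Figure D1:**
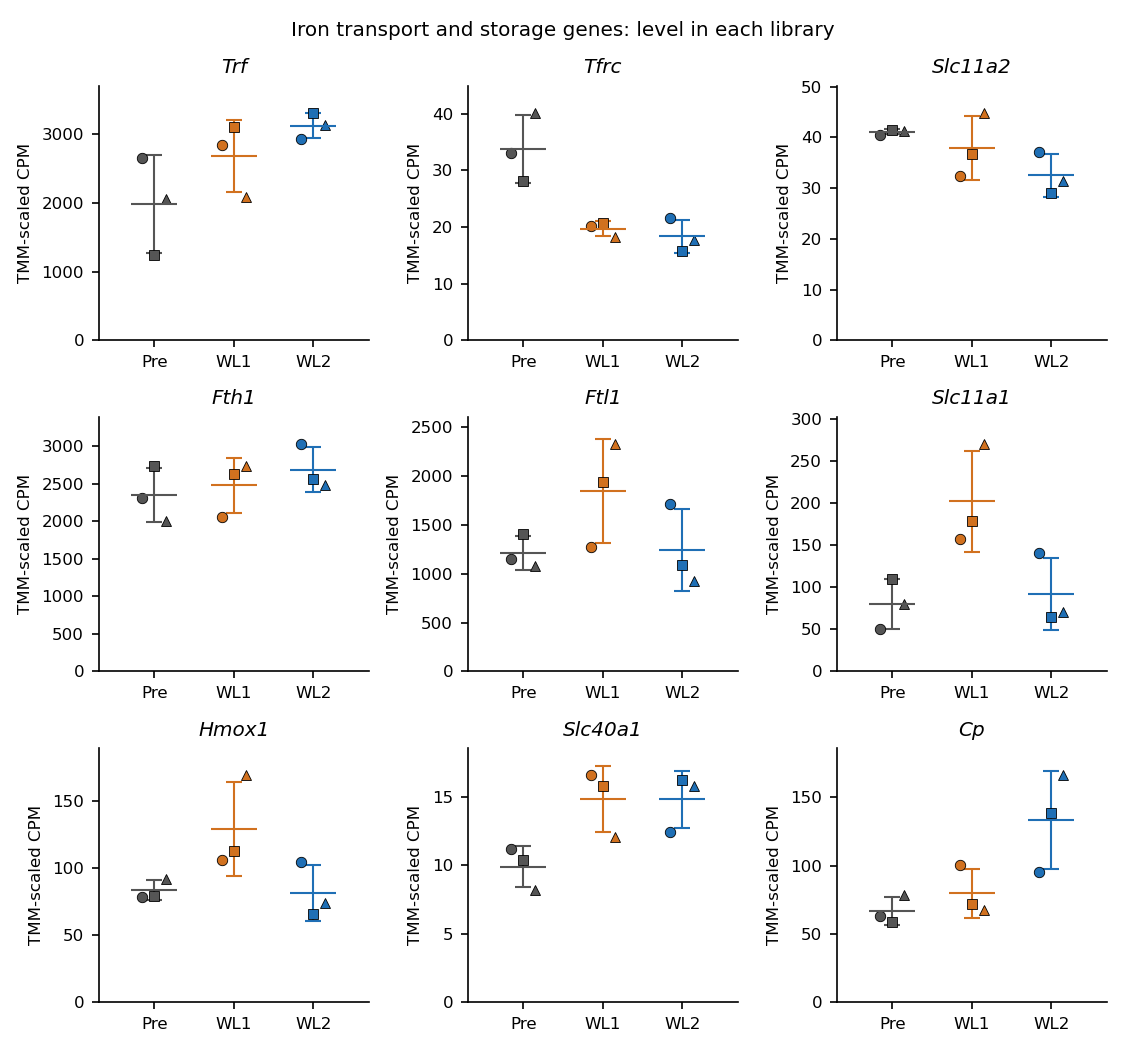
Level of each of the 9 genes in TMM-scaled CPM (vertical axis, from 0) at Pre, WL1 and WL2, with a point per library (circle, square and triangle for replicates 1, 2 and 3), a horizontal bar for the mean and whiskers for the SD of 3 libraries. All 3 Pre libraries lie above the other 6 for *Tfrc*, all WL1 libraries lie above the other 6 for *Slc11a1*, and the *Cp* libraries of WL2 all lie above those of Pre.

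*Tfrc* (ENSMUSG00000022797, chromosome 16, 32427738 to 32451612 in the table of counts) encodes the receptor that brings transferrin-bound iron into cells. Its level was 33.1, 28.2 and 40.1 CPM in Pre replicates 1 to 3, 20.1, 20.8 and 18.3 CPM in the WL1 libraries and 21.6, 15.8 and 17.7 CPM in the WL2 libraries. Every Pre library was above every library of the weight loss phases, whereas WL1 and WL2 overlapped. The phase means were 33.8 ± 5.97, 19.7 ± 1.31 and 18.4 ± 2.97 CPM (SD, n = 3). Against Pre, its log2 fold change was -0.78 ± 0.16 (SE) at WL1 (adjusted p = 0.0185, edgeR) and -0.88 ± 0.16 at WL2 (adjusted p = 0.00721). Between WL2 and WL1 it was -0.10 ± 0.16 (adjusted p = 0.775). At WL2 the fall passed the threshold in each of 20 alternative analyses, with adjusted p-values up to 0.0434. At WL1 it missed the threshold without Pre replicate 1 (adjusted p = 0.0523) and without WL1 replicate 1 (0.0563), 2 (0.0508) or 3 (0.0713), with log2 fold changes between -0.82 and -0.74 in these fits.

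*Tfrc* is abundant in red cell precursors and in dividing cells, and transcripts of red cells and of lymphocytes moved with it. The summed level of 8 erythroid markers, mainly hemoglobin genes, was 989 to 1619 CPM at Pre, 360 to 597 CPM at WL1 and 421 to 785 CPM at WL2. Of the 6 that could be tested, 4 fell at WL1 and 3 at WL2 against Pre. The other 2, *Epb42* among them, were below 0.5 CPM in every library. The summed level of 8 lymph node and B cell markers was 1194 to 2718 CPM at Pre, 171 to 301 CPM at WL1 and 170 to 271 CPM at WL2, and 1 of the 8 fell in each comparison with Pre. Among the Pre libraries, replicate 2 had the highest sum of both lists and the lowest *Tfrc*. Without Pre replicate 2, the log2 fold change of *Tfrc* was -0.89 at WL1 and -1.02 at WL2. The part of these cells in the fall of *Tfrc* was not tested. In a bulk tissue, fewer cells of a type and less RNA per cell cannot be told apart, here and in what follows.

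*Trf* (ENSMUSG00000032554, chromosome 9, 103081200 to 103107643) encodes the plasma carrier of iron, made chiefly by the liver and also by adipocytes. Its level was 2647, 1237 and 2060 CPM at Pre, 2845, 3106 and 2090 CPM at WL1 and 2934, 3302 and 3129 CPM at WL2. All WL2 libraries were above all Pre libraries, but the Pre libraries spread widely and Pre replicate 2 was low. Its log2 fold change was 0.44 ± 0.24 at WL1 (adjusted p = 0.301) and 0.66 ± 0.24 at WL2 against Pre (adjusted p = 0.120), and 0.22 ± 0.24 at WL2 against WL1 (adjusted p = 0.671). At WL2 against Pre it was 0.92 without Pre replicate 1, where it passed the threshold (adjusted p = 0.0456), and 0.41 without Pre replicate 2 (adjusted p = 0.216). DESeq2 on all libraries passed it as well (adjusted p = 0.0486). The 10 hepatocyte markers summed to 12.3 to 105 CPM at Pre, 4.32 to 97.2 CPM at WL1 and 4.49 to 8.05 CPM at WL2. Their part in the level of *Trf* was not tested.

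*Slc11a2* (ENSMUSG00000023030, chromosome 15, 100285779 to 100322953) encodes the transporter that moves iron out of the endosome after receptor uptake. It was counted at 40.5, 41.4 and 41.4 CPM at Pre, 32.4, 36.8 and 44.8 CPM at WL1 and 37.2, 28.9 and 31.5 CPM at WL2. Each WL2 library was below each Pre library. Relative to Pre, the log2 fold change was -0.34 ± 0.14 at WL2 (adjusted p = 0.157) and -0.11 ± 0.14 at WL1 (adjusted p = 0.653), and neither passed the test.

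**Figure D2:**
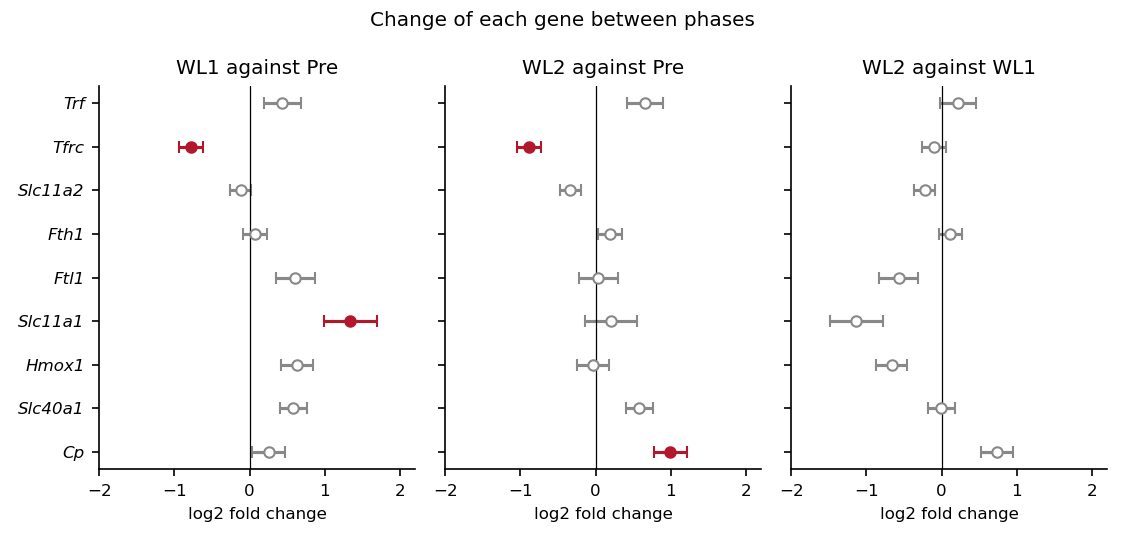
Log2 fold change of each of the 9 genes (horizontal axis) in the 3 comparisons, with bars for the SE. Filled red points have an adjusted p below 0.05 by edgeR (*Tfrc* and *Slc11a1* at WL1, *Tfrc* and *Cp* at WL2 against Pre, none at WL2 against WL1), and open grey points do not.

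Neither ferritin chain passed the test in any comparison. *Fth1* (ENSMUSG00000024661, chromosome 19, 9957962 to 9962462), the chain with the ferroxidase site, varied little. It stood at 2315, 2737 and 2009 CPM at Pre, 2063, 2633 and 2744 CPM at WL1 and 3029, 2562 and 2484 CPM at WL2, and all 3 phases overlapped. Its log2 fold changes were 0.08 ± 0.16, 0.19 ± 0.16 and 0.12 ± 0.16 for WL1 and WL2 against Pre and for WL2 against WL1 (adjusted p of 0.808, 0.464 and 0.732). *Ftl1* (ENSMUSG00000050708, chromosome 7, 45107368 to 45109308), the chain that helps to form the mineral core, varied more. It stood at 1151, 1405 and 1081 CPM at Pre, 1271, 1937 and 2325 CPM at WL1 and 1716, 1085 and 922 CPM at WL2. WL1 replicates 2 and 3 and WL2 replicate 1 were above all others, and the phases overlapped. Its log2 fold change against Pre was 0.61 ± 0.26 at WL1 (adjusted p = 0.185) and 0.03 ± 0.26 at WL2 (adjusted p = 0.948), and -0.57 ± 0.26 at WL2 against WL1 (adjusted p = 0.237). The 3 annotated pseudogenes of *Ftl1* took 1.93% to 2.22% of the reads counted on them and *Ftl1* together, and those of *Fth1* at most 0.00403%. These shares cover counted reads only. Reads that matched several copies and were left out of the counts are not measured by them.

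The balance of the chains can be read within each library. The ratio of *Fth1* to *Ftl1* FPKM was 0.777, 0.752 and 0.718 at Pre, 0.627, 0.525 and 0.456 at WL1 and 0.682, 0.912 and 1.04 at WL2. All WL1 ratios were below all Pre ratios and all WL2 ratios. WL2 replicate 1 was the lowest of its phase and below each Pre library, and the other two WL2 libraries were above them. The phase means were 0.749 ± 0.0294, 0.536 ± 0.0859 and 0.878 ± 0.182 (SD, n = 3). These ratios are given without a test, since the ratio was added as a description. Heavy chain transcripts were below light chain transcripts in 8 of the 9 libraries on this scale, which depends on the gene lengths in the table (3469 bases for *Fth1* and 1340 bases for *Ftl1*). On the scale of counts, *Fth1* was the higher in every library.

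**Figure D3:**
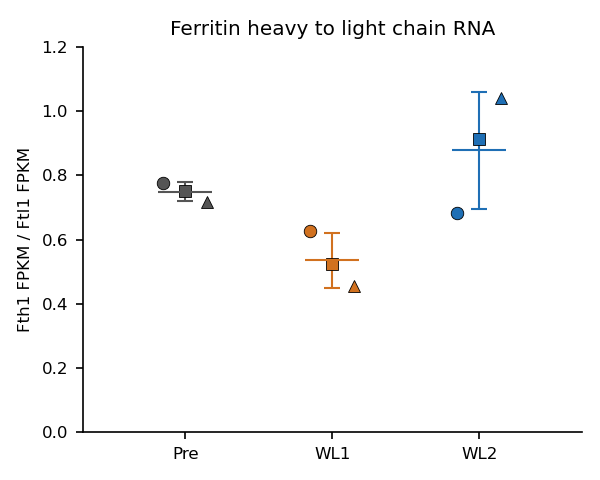
Ratio of *Fth1* to *Ftl1* FPKM (vertical axis, from 0) in each library at Pre, WL1 and WL2, with the mean and SD of 3 libraries and the same symbols per replicate number. The 3 WL1 libraries lie between 0.456 and 0.627, below all the others.

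*Slc11a1* (ENSMUSG00000026177, chromosome 1, 74414354 to 74425221) encodes the metal transporter of the phagosome, a gene of macrophages and neutrophils. Its level was 50.3, 109 and 79.8 CPM at Pre, 157, 179 and 270 CPM at WL1 and 141, 64.6 and 70.8 CPM at WL2. Each WL1 library was above each library of the other phases, and Pre and WL2 overlapped. The phase means were 79.8 ± 29.5, 202 ± 59.8 and 92.1 ± 42.3 CPM (SD, n = 3). At WL1, *Slc11a1* exceeded Pre by a log2 fold change of 1.34 ± 0.35 (adjusted p = 0.0463, edgeR), the largest rise among the 9 genes. At WL2 against WL1 it was -1.13 ± 0.35 (adjusted p = 0.0950), and at WL2 against Pre 0.21 ± 0.35 (adjusted p = 0.745). The call at WL1 lay close to the threshold. It was lost without Pre replicate 1 (adjusted p = 0.127) or 3 (0.0933), without WL1 replicate 1 (0.0656), 2 (0.0836) or 3 (0.147) and without WL2 replicate 2 (0.0541) or 3 (0.0594), with log2 fold changes of 1.07 to 1.49. It was also lost with limma on log2 FPKM (adjusted p of 0.0585 and 0.0569) and with the replicate number as a block (0.0992). WL2 replicate 1 was the highest of its phase, and without it the log2 fold change at WL2 against WL1 was -1.58 and passed the threshold.

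*Hmox1* (ENSMUSG00000005413, chromosome 8, 75820249 to 75827217), which encodes the enzyme that opens the heme ring and frees its iron, had its highest phase mean at WL1. It stood at 79.0, 79.7 and 92.1 CPM at Pre, 106, 113 and 169 CPM at WL1 and 105, 65.9 and 74.0 CPM at WL2. The WL1 libraries were all above those of Pre and of WL2, the latter by a narrow margin. Against Pre, its log2 fold change was 0.63 ± 0.21 at WL1 (adjusted p = 0.0975) and -0.03 ± 0.21 at WL2 (adjusted p = 0.933), and against WL1 it was -0.67 ± 0.21 at WL2 (adjusted p = 0.0999). None passed edgeR's test. DESeq2 and a fit with no filter passed both the difference between WL1 and Pre and that between WL2 and WL1, and a scaling by the library totals alone passed the former. *Hmox1* is also a target of the oxidative stress factor Nrf2. Of 8 other Nrf2 targets, 1 changed at WL1 and 2 at WL2 against Pre, and none at WL2 against WL1 by edgeR, where 3 had an unadjusted p under 0.05 and DESeq2 called 1. *Osgin1*, a stress-induced growth inhibitor, fell by 0.96 at WL1 and by 1.36 at WL2 on the log2 scale, and *Gsr*, glutathione reductase, rose by 0.62 at WL2. At WL1 against Pre, 5 of the 8 were higher and 3 lower by sign, with a median log2 fold change of 0.18. DESeq2 called 1 higher and 1 lower there. The 8 targets summed to 290 to 316 CPM at Pre, 321 to 358 CPM at WL1 and 289 to 354 CPM at WL2.

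Part of the macrophage transcripts moved with *Slc11a1*, *Hmox1* and *Ftl1*. The 17 macrophage markers summed to 1791 to 3379 CPM at Pre, 3225 to 6016 CPM at WL1 and 1995 to 3511 CPM at WL2. Of 16 tested, 1 rose at WL1 against Pre, where 2.60% of all genes rose. By sign, 12 were higher and 4 lower, and DESeq2 called 5 higher. The marker that was not tested, *Clec4f*, was below 0.5 CPM in every library. Of 10 markers of lipid-associated macrophages, 5 rose at WL1 against Pre and 1 fell at WL2 against WL1. Their sum was 5494 to 14602 CPM at Pre, 12442 to 17721 CPM at WL1 and 6721 to 9819 CPM at WL2, but it includes *Lpl* at 3370 to 13178 CPM, which adipocytes also express. *Trem2*, the receptor that defines these macrophages, stood at 55.1, 82.0 and 91.7 CPM at Pre, 185, 230 and 402 CPM at WL1 and 198, 58.7 and 53.3 CPM at WL2. WL1 replicate 3 was the highest library for *Trem2*, *Slc11a1*, *Hmox1* and *Ftl1*, and WL2 replicate 1 was the highest of its phase for all 4. The neutrophil markers were low, with sums of 11.8 to 18.0 CPM at Pre, 2.66 to 3.88 CPM at WL1 and 0.510 to 3.12 CPM at WL2, and 5 of the 8, among them *Ly6g* and *Cxcr2*, were below 0.5 CPM in every library. The part of the number of macrophages in these values was not tested.

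**Figure D4:**
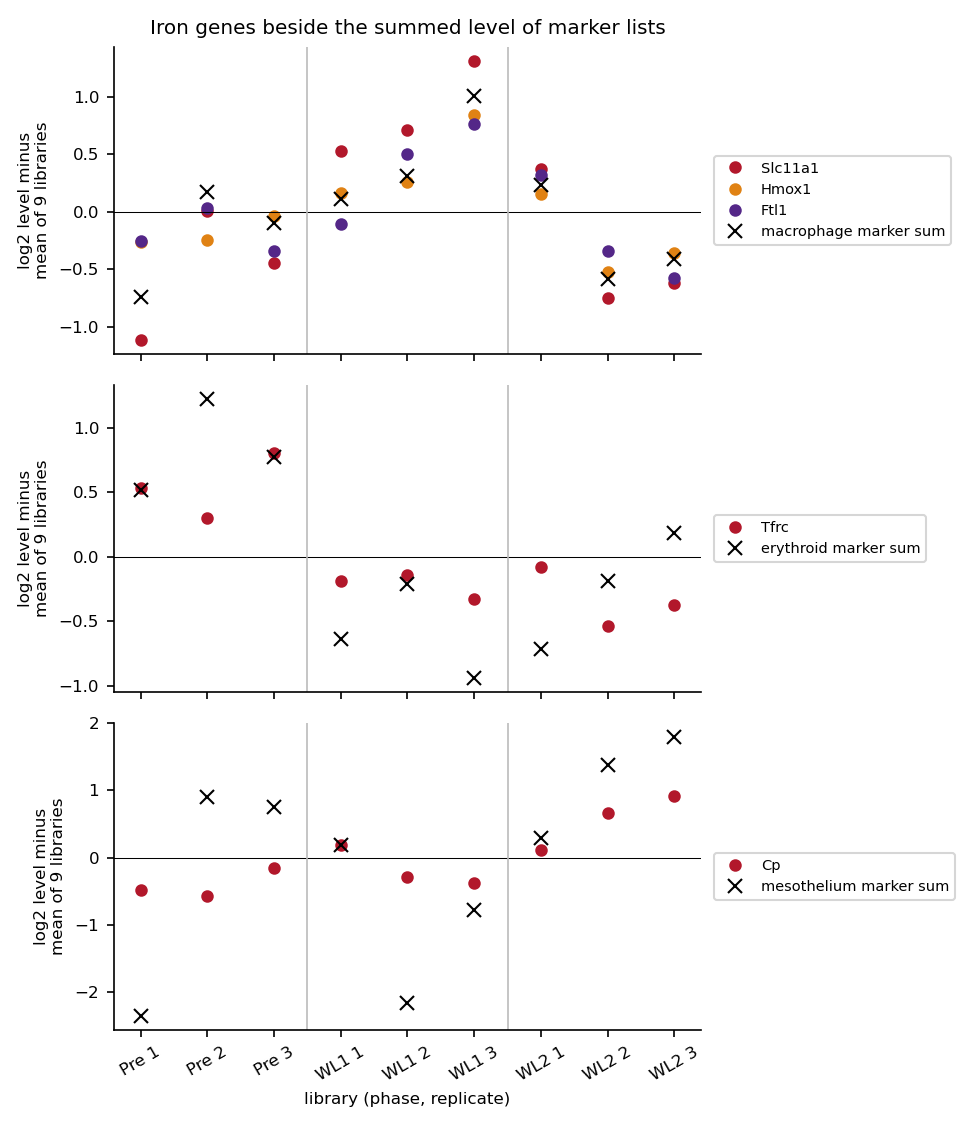
Log2 level minus the mean of the 9 libraries (vertical axis) in each library, for *Slc11a1*, *Hmox1* and *Ftl1* beside the summed macrophage markers, *Tfrc* beside the summed erythroid markers and *Cp* beside the summed mesothelium markers. In the upper panel WL1 replicate 3 is the highest library for all series, in the middle panel the 3 Pre libraries are the highest, and in the lower panel WL2 replicates 2 and 3 are.

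*Slc40a1* (ENSMUSG00000025993, chromosome 1, 45947228 to 45965683) encodes ferroportin, the only known iron exporter of mammalian cells. Its level was 11.1, 10.4 and 8.21 CPM at Pre, 16.6, 15.8 and 12.1 CPM at WL1 and 12.4, 16.2 and 15.8 CPM at WL2. All 6 libraries of the weight loss phases were above the 3 Pre libraries. The log2 fold change was 0.58 ± 0.18 in both comparisons with Pre, with adjusted p-values of 0.0777 at WL1 and 0.0690 at WL2, so that neither passed edgeR's test. DESeq2 and a scaling by the library totals alone passed it in both. Between WL2 and WL1 the log2 fold change was -0.00 ± 0.18 (adjusted p = 0.997), and its sign changed with the scaling. The highest library for *Trem2*, WL1 replicate 3, had the lowest *Slc40a1* of the weight loss phases.

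*Cp* (ENSMUSG00000003617, chromosome 3, 20011218 to 20063309) encodes the ferroxidase that works beside ferroportin. Its level was 62.9, 59.1 and 78.5 CPM at Pre, 100, 71.8 and 67.3 CPM at WL1 and 95.1, 139 and 166 CPM at WL2. Each WL2 library was above each Pre library, whereas WL1 overlapped with both. The phase means were 66.8 ± 10.3, 79.9 ± 18.0 and 133 ± 35.8 CPM (SD, n = 3). Its log2 fold change against Pre was 1.00 ± 0.22 at WL2 (adjusted p = 0.0176, edgeR) and 0.26 ± 0.22 at WL1 (adjusted p = 0.506), and 0.74 ± 0.22 at WL2 against WL1 (adjusted p = 0.0848). The call at WL2 was lost without Pre replicate 1 (adjusted p = 0.0554) or 2 (0.0528) and without WL2 replicate 2 (0.0687) or 3 (0.0714), with log2 fold changes of 0.81 to 0.97. Mesothelial transcripts, from the lining of the fat pad, were also highest in WL2 replicates 2 and 3. The 8 markers summed to 40.2, 385 and 349 CPM at Pre, 234, 46.1 and 121 CPM at WL1 and 251, 535 and 717 CPM at WL2. In Pre replicates 2 and 3 the sum was above that of WL2 replicate 1, while *Cp* was below it. None of the 8 passed the test against Pre, and at WL2 against WL1 none did either by edgeR or DESeq2, although all 8 had an unadjusted p under 0.05. Hepatocytes also make *Cp*, and the sums of their markers are given with *Trf*. The part of mesothelial cells and of hepatocytes was not tested.

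Other genes of iron and heme handling were followed in 6 lists, of which 68 genes could be tested. More fell than rose in the comparisons with Pre, with 2 rising and 14 falling at WL1 and 3 rising and 9 falling at WL2, whereas 3 rose and 2 fell at WL2 against WL1. Among all genes, 2.60% rose and 4.69% fell in the comparison of WL1 with Pre, 3.35% and 6.66% in that of WL2 with Pre, and 1.31% and 2.37% at WL2 against WL1. The median log2 fold change of the 68 genes was -0.19, -0.12 and 0.04. In all, 23 of them passed in at least 1 comparison and 6 in both comparisons with Pre. The pattern of the iron-responsive element occurred in 2 of the 72 searched genes of these lists, in the 5′ UTR of *Alas2*, across an intron, and in the 3′ UTR of *Bola3*.

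*Hfe*, an MHC class I-like protein that binds the transferrin receptor and takes part in hepcidin control, stood at 286, 236 and 267 CPM at Pre, 71.5, 78.5 and 105 CPM at WL1 and 56.5, 58.2 and 60.3 CPM at WL2. The phases did not overlap in any comparison. The log2 fold change of *Hfe* was -1.63 ± 0.15 at WL1 (adjusted p = 0.000401) and -2.17 ± 0.15 at WL2 against Pre (adjusted p = 2.21e-05), and both passed in all 20 alternatives. *Tfr2*, the second transferrin receptor, which senses iron in hepatocytes and red cell precursors, stood at 12.0, 9.75 and 16.9 CPM at Pre, 9.55, 10.2 and 15.1 CPM at WL1 and 3.29, 1.87 and 1.16 CPM at WL2. The fall of *Tfr2* thus came between WL1 and WL2, with a log2 fold change of -2.61 ± 0.36 against Pre (adjusted p = 0.00151) and -2.46 ± 0.36 against WL1 (adjusted p = 0.00933). The fall against Pre passed in all 20 alternatives. The fall against WL1 was lost without WL2 replicate 2 (adjusted p = 0.0660). The hepatocyte markers, with the sums given for *Trf*, were also low at WL2. Their sum was low too in Pre replicate 1 (12.3 CPM) and in WL1 replicates 2 (4.32 CPM) and 3 (12.0 CPM). In these libraries *Tfr2* stood at 12.0, 10.2 and 15.1 CPM. The part of hepatocytes in the fall of *Tfr2* was not tested.

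Most genes of heme synthesis fell at WL1. Of 9, 6 passed downward at WL1 against Pre and none upward, and at WL2 against Pre 2 passed downward and 1 upward. *Alad*, the enzyme of the second step, stood at 50.8, 52.0 and 42.6 CPM at Pre, 22.3, 22.2 and 21.3 CPM at WL1 and 35.5, 43.7 and 42.9 CPM at WL2. Its log2 fold change was -1.14 ± 0.12 at WL1 against Pre (adjusted p = 0.000771) and 0.89 ± 0.12 at WL2 against WL1 (adjusted p = 0.00753), so that it fell and rose again. The rise was lost without WL2 replicate 2 (adjusted p = 0.0553). *Alas1*, the rate-limiting enzyme outside red cells, stood at 261, 217 and 280 CPM at Pre, 149, 155 and 201 CPM at WL1 and 160, 120 and 137 CPM at WL2, with log2 fold changes of -0.59 ± 0.16 (adjusted p = 0.0492) and -0.86 ± 0.16 (adjusted p = 0.00747) against Pre. *Urod* and *Fech*, enzymes of later steps, fell by 0.49 and 0.36 at WL1 on the log2 scale, while *Ppox*, of the step before *Fech*, rose by 0.51 at WL2 against Pre. *Alas2*, the form of red cell precursors, fell by 1.68 at WL1 together with the hemoglobin genes, which summed to 969 to 1572 CPM at Pre and 353 to 584 CPM at WL1. Without *Alas2*, 5 of 8 genes fell. Adipocyte markers were low at WL1 as well. The 10 markers summed to 29539 to 37433 CPM at Pre, 20939 to 27509 CPM at WL1 and 30718 to 33732 CPM at WL2, and 4 of them fell at WL1 against Pre. Their part in the fall of these genes was not tested.

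**Figure D5:**
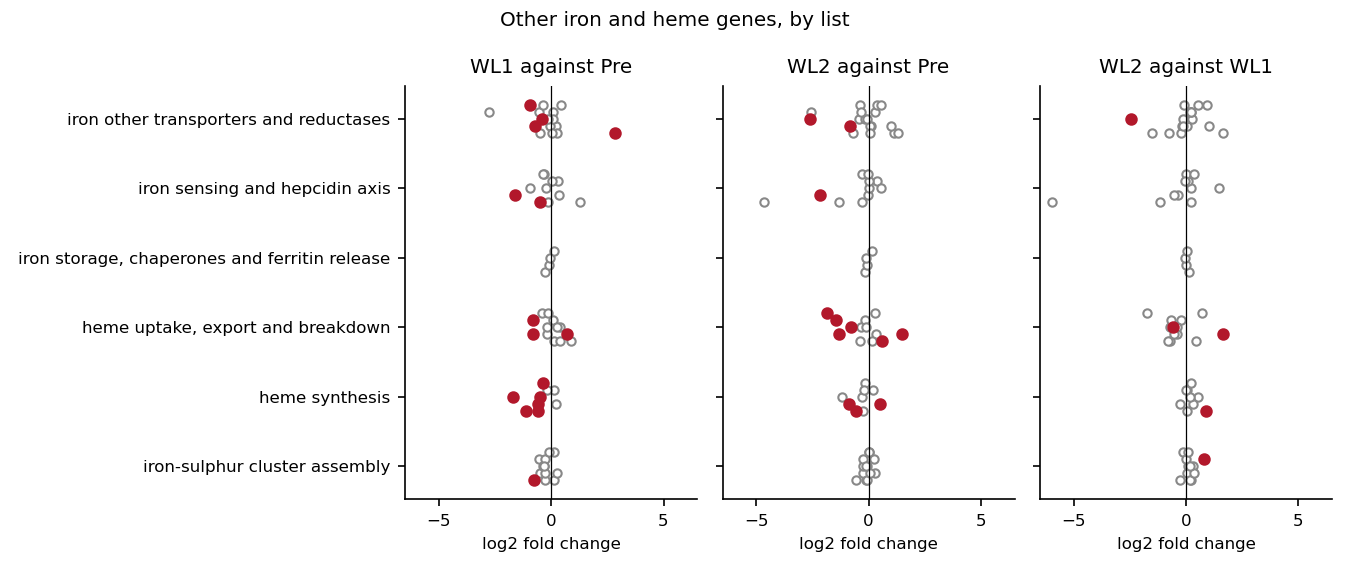
Log2 fold change (horizontal axis) of the 68 other iron and heme genes in 6 lists and 3 comparisons, with filled red points for genes with an adjusted p below 0.05 by edgeR and open grey points for the rest. Heme synthesis has 6 red points at WL1 against Pre, all below 0, and the storage and chaperone list has none in any comparison.

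Of 13 genes of heme uptake, export and breakdown, 1 rose and 2 fell at WL1 against Pre, 2 rose and 4 fell at WL2 against Pre, and 1 rose and 1 fell at WL2 against WL1. In that last comparison, 3 were higher and 10 lower by sign, with a median log2 fold change of -0.52. There 12 had an unadjusted p under 0.05, and DESeq2 called 2 higher and 6 lower. The libraries of WL2 and WL1 did not overlap for 11 of the 13, beside 30.3% of all genes. *Hp*, haptoglobin, which binds free hemoglobin and is made by liver and adipocytes, stood at 5081, 3983 and 5745 CPM at Pre, 2398, 3392 and 2705 CPM at WL1 and 1862, 1328 and 2155 CPM at WL2, stepwise lower without overlap. Its log2 fold change was -0.80 ± 0.21 at WL1 (adjusted p = 0.0443) and -1.47 ± 0.21 at WL2 against Pre (adjusted p = 0.00186). *Slc48a1*, which moves heme from the lysosome to the cytosol, stood at 567, 589 and 502 CPM at Pre, 418, 511 and 527 CPM at WL1 and 354, 312 and 312 CPM at WL2. It fell by 0.76 at WL2 against Pre and by 0.58 against WL1 on the log2 scale. *Slc46a1*, a folate transporter that also carries heme, fell by 0.80 at WL1 and by 1.32 at WL2 against Pre. *Hpx*, hemopexin, was low throughout, at 0.397 to 4.11 CPM, and fell by 1.84 at WL2 against Pre. In the other direction, *Bach1*, a heme-sensing repressor of *Hmox1*, rose by 0.72 at WL1, and *Abcg2*, an exporter that can carry porphyrins, rose by 0.58 at WL2. *Flvcr2*, a membrane transporter first described for heme, rose by 1.47 at WL2 against Pre and by 1.65 against WL1. Its level was low, at 1.11 to 4.81 CPM, and the smallest rises among the alternative analyses were 0.57 and 0.62. *Bach1* and *Hmox1* were both highest in WL1 replicate 3.

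Of the 18 other transporters, carriers and reductases, 1 rose and 3 fell at WL1 against Pre, and 2 fell at WL2 against Pre. *Steap4*, a metalloreductase of adipocytes and macrophages, stood at 632, 668 and 747 CPM at Pre, 508, 419 and 326 CPM at WL1 and 335, 391 and 416 CPM at WL2, a fall of 0.71 and 0.84 on the log2 scale without overlap. *Lcn2*, which binds iron-loaded siderophores, and its receptor *Slc22a17* fell by 0.93 and 0.42 at WL1. *Ltf*, lactoferrin, rose by 2.84 at WL1, but from 0.0461 to 0.177 CPM at Pre to 0.781 to 0.843 CPM, which is few reads. Of the 11 tested genes of iron sensing and the hepcidin axis, 2 fell at WL1, *Hfe* and *Aco1*, the iron regulatory protein that doubles as an aconitase, and 1, *Hfe*, at WL2. *Aco1* stood at 212, 223 and 214 CPM at Pre, 146, 164 and 150 CPM at WL1 and 175, 179 and 178 CPM at WL2, a fall of 0.49 at WL1 on the log2 scale. Of 13 genes of iron-sulphur cluster assembly, *Glrx5*, a cluster carrier, fell by 0.76 at WL1, and *Fdx1*, a ferredoxin, rose by 0.80 at WL2 against WL1. At WL1 against Pre, 3 of the 13 were higher and 10 lower by sign. There 8 had an unadjusted p under 0.05, and DESeq2 called 5 lower. At WL2 against WL1, 11 were higher and 2 lower, 3 had an unadjusted p under 0.05, and DESeq2 called 3 higher. None of the 4 tested genes of iron storage, chaperones and ferritin release passed in any comparison, none had an unadjusted p under 0.05, and DESeq2 called none. Their log2 fold changes lay between -0.29 and 0.15.

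Not all of these calls were equally firm. At WL1 against Pre, *Hfe* and *Alad* passed in all 20 alternatives, and the number of the 68 genes that passed was 4, 10 and 13 without Pre replicate 1, 2 or 3, 3, 7 and 5 without WL1 replicate 1, 2 or 3, and 15, 8 and 13 without WL2 replicate 1, 2 or 3. At WL2 against Pre, 7 genes passed in all 20, *Alas1*, *Hfe*, *Hp*, *Slc46a1*, *Slc48a1*, *Steap4* and *Tfr2*. At WL2 against WL1, none of the 5 passed without WL2 replicate 2.

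The genes whose pattern over the 9 libraries was most like that of each of the 9 were ranked by Pearson's r of log2 CPM among 11079 protein-coding genes of at least 5 CPM. *Slc11a1* was followed most closely by *Ankrd13b* (r = 0.994), by *Itgb2*, the chain shared by leukocyte integrins (r = 0.993), and by *Ly9*, a leukocyte surface receptor (r = 0.990). For *Hmox1* these were *Il10rb*, a cytokine receptor chain (r = 0.990), *Atp6v1c1*, a subunit of the proton pump of lysosomes (r = 0.986), and *Ctsk*, a lysosomal protease (r = 0.983). For *Ftl1* they were *Ftl1-ps1*, which can share its reads (r = 0.984), *Slc66a2* (r = 0.979) and *Mfsd1*, a lysosomal membrane protein (r = 0.976). *Tfrc* was followed by *Znrf2* (r = 0.976), *Igf1*, a growth factor (r = 0.973), and *Mtap* (r = 0.973). *Slc40a1* was followed by *Olfm2* (r = 0.969), *Prr5l* (r = 0.966) and *Miga1* (r = 0.960), and *Cp* by *Hjurp* (r = 0.985), *Pkd2* (r = 0.984) and *Shroom3* (r = 0.979). *Fth1* was followed by *Anapc11* (r = 0.961) and the ribosomal protein genes *Rpl22* (r = 0.960) and *Rps4x* (r = 0.957). *Trf* was followed by *Gm12216* (r = 0.981), *Scaper* (r = 0.980) and *Srsf5*, a splicing factor (r = 0.979), and *Slc11a2* by *Tmem19* (r = 0.983), *Tango2* (r = 0.952) and *Cct2* (r = 0.949). These are descriptions over 9 libraries that share their phases. Ranked by Spearman's rho, 4 of the 27 names came out again.

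The label of adipose tissue was matched by its markers, since *Adipoq*, the adipocyte hormone adiponectin, stood at 1676 to 3459 CPM in the 9 libraries. Which fat depot it was, epididymal by the label, was not examined with markers. The markers of epididymis and testis summed to at most 1.59 CPM. Of 8 endothelial markers none changed by edgeR or DESeq2, with 0, 1 and 0 at an unadjusted p under 0.05 in the 3 comparisons. Of 8 fibroblast markers, 1 rose at WL2 against Pre, where 3.35% of all genes rose. By sign, 4 were higher and 4 lower there, and 6 had an unadjusted p under 0.05. DESeq2 called 1 higher and 1 lower. At WL2 against WL1 edgeR called 0 fibroblast markers, 5 had an unadjusted p under 0.05, and DESeq2 called 1 higher and 3 lower. Of 10 hepatocyte markers, 3 fell at WL2 against Pre. Pre replicate 2 stood apart in B cell genes, with *Cd79a* at 67.1 CPM against 0.956 to 5.39 CPM in the other 8 libraries.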

How the data were processed

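RNA of 9 libraries of epididymal adipose tissue was analysed, 3 each at Pre, WL1 and WL2, grouped by the sample titles. The authors deposited raw read counts for each gene and the FPKM of these libraries. Per the submitters' processing notes, the tools include CASAVA, HISAT, HISAT2 and TopHat2 and the builds GRCm38 and mm10. For the strand setting and the annotation, the sources used here state nothing. Of 52073 genes shared with GENCODE M21 (GRCm38), 1435 had the same coordinates in the deposited table, and none of the 9 genes did. The coordinates of the table are therefore given without a build. They cannot be compared with the GRCm38 positions of the iron-responsive elements. The FPKM imply totals of 0.995 to 1.12 times the summed counts. The FPKM served for levels between genes and as an alternative.

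The 18510 genes that reached 0.5 CPM in any library were tested with edgeR 4.0.16 in R 4.3.3 (glmQLFit and glmQLFTest, TMM factors of 0.933 to 1.07, 1 model over 9 libraries, Benjamini-Hochberg threshold of 0.05). Log2 CPM used a prior count of 4. The script was tested on simulated data. Alternatives used DESeq2 1.42.0, every gene with a read, genes above the minimum in 3 libraries, RLE or upper quartile factors or library totals alone, a replicate block, limma 3.58.1 on log2(FPKM + 1) and log2(FPKM + 0.1), the compared phases alone, each library left out, and, chosen after seeing the data, ferritin pseudogene reads added to *Fth1* and *Ftl1*.

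The genes and lists were chosen with earlier results of these data known. Named in the text were each of the 9 genes, every gene of the other iron lists past the threshold in at least 1 comparison, and, for each of the 9 genes, the 3 protein-coding genes of at least 5 CPM with the highest Pearson's r. A gene that this rule names is not reported here. *Osgin1*, *Gsr*, *Trem2*, *Lpl*, *Adipoq*, *Cd79a*, *S100a8*, *S100a9* and marker genes at low levels were named after their values were seen. Iron-responsive elements were searched in GENCODE M21 transcripts. *Hfe2*, *Fam132b* and *Fdx1l* had no row under these names, and *Hamp2*, *Erfe* and *Ftmt* were below the filter. With 16434450 to 22729072 counts per library, genes near 0.5 CPM rest on few reads.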

Additional observations from a re-analysis of the deposited data

How the results depend on the processing

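Of the log2 fold changes of the 9 genes, the calls of *Slc11a1* and *Tfrc* at WL1 and of *Cp* at WL2 depended on single libraries as given with them. The number of the 9 genes that passed at WL1 against Pre was 2, 4 with DESeq2, 4 with library totals alone, 1 with limma on either FPKM scale and 0 to 2 with a library left out. At WL2 against Pre it was 2, 4 with DESeq2 and 1 to 2 with a library left out. At WL2 against WL1 it was 0, 3 with no filter, 3 with DESeq2 and 0 to 3 with a library left out (3 without WL2 replicate 1). Of the other iron genes, 16 passed at WL1 against Pre, 24 with DESeq2, 20 with a filter on 3 libraries, 9 in a fit of the compared phases alone and 3 to 15 with a library left out. At WL2 against Pre 12 passed, 20 with DESeq2 and 7 to 13 with a library left out. At WL2 against WL1 5 passed, 13 with no filter, 15 with DESeq2 and 0 to 8 with a library left out.

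With the replicate number as a block, 1 of the 9 genes passed at WL1 against Pre, and 10 and 3 of the other iron genes at WL1 against Pre and WL2 against WL1. Same-numbered libraries did not deviate together (correlations of -0.277 to 0.107, and 2 of 9 were best with their own number), so the numbers were not taken as pairs.

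Values near 0 changed sign. Leaving out 1 library gave log2 fold changes of -0.0266 to 0.198 for *Fth1* at WL1 against Pre. At WL2 against Pre it gave -0.273 to 0.208 for *Ftl1*, -0.237 to 0.4999 for *Slc11a1* and -0.257 to 0.0977 for *Hmox1*, and at WL2 against WL1 -0.108 to 0.108 for *Slc40a1*. At WL2 against Pre, *Ftl1* was -0.0101 with limma on either FPKM scale and *Hmox1* was 0.110 with library totals alone. At WL2 against WL1, *Slc40a1* was 0.0233 with a filter on 3 libraries, 0.0163 with DESeq2, 0.0169 with RLE factors, 0.0590 with upper quartile factors, 0.0481 with library totals alone, 0.0114 with a replicate block, 0.0119 and 0.0188 with limma on log2(FPKM + 1) and log2(FPKM + 0.1), and 0.00633 for the compared phases alone. The causes were not tested.

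Scaling by library totals alone moved the median of all genes to 0.12 at WL1 and 0.16 at WL2 against Pre, and the genes that rose and fell from 482 and 868 to 1003 and 642 at WL1 and from 620 and 1233 to 1495 and 835 at WL2. Over all genes, the number that passed at WL1 against Pre was 1350, 2344 with DESeq2 and 844 with a replicate block. At WL2 against WL1 it was 681, 1668 with no filter, 1935 with DESeq2, 330 with a block and 1051 for the compared phases alone. With a library left out, the numbers were 507 to 1490, 746 to 1680 and 37 to 1347. Adding the ferritin pseudogene reads changed no call of the 9 genes. With 3 libraries per phase, small changes of genes that vary between libraries, such as *Trf* and *Ftl1*, are measured with wide error.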
